A study of Mus musculus with 12 samples.

Results

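Neighbouring sites of equal fold are pairs of sites that lie next to each other in one gene, in one list, and that carry almost the same enrichment. In each of 8 lists the sites of a gene were sorted along the chromosome, consecutive sites were paired, and a pair was kept when the larger of its folds was at most 5% above the smaller. The rule kept 120 of 1134 neighbouring pairs (10.6%), which is 240 of 4046 sites. The pairs fell in 100 genes, 1 of them a predicted gene that is counted and not named here. Because the folds chose the pairs, the closeness of the folds is a description and not a finding. What the rule did not use, namely gaps, widths, edges, genes and the values in lists that did not choose a pair, is described in the rest of the text.

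The lists came from RNA immunoprecipitation sequencing of mouse inner ear organoids. Cells dissociated from the cochlear epithelium of mice at postnatal day 1 to 2 were embedded in Matrigel, expanded for 8 to 10 days, differentiated for 7 to 8 days with 3 μM CHIR99021 and 5 μM LY411575, and then held in low EGF and bFGF for 9 to 10 days. Control organoids received a control lentivirus and depleted organoids an Rbm25 knockdown lentivirus, although their titles say KO, and no strain, promoter or cell type for the knockdown is given in the labels. Lysates went to an antibody against RBM25 (IP) or to a control antibody (IgG), and libraries labelled Input were made as well, so that 12 libraries formed 6 groups of 2. IP and IgG libraries with the same condition and number are taken here as 1 culture, 4 in all, which is an assumption from the titles. The labels do not tie the cultures to different animals. The p-values therefore reflect the spread among these libraries and nothing wider, and that spread could be purely technical.

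RBM25 is an RNA-binding protein that associates with the splicing machinery and influences the choice of splice sites. During splicing an intron is cut out between a donor site, which nearly always begins with GT in the DNA, and an acceptor site, which nearly always ends with AG, and the flanking exons are joined. A read or fragment that spans such a junction in spliced RNA is placed by a splice-aware aligner on both exons, so that a single stretch of RNA can appear in genome coordinates as separate blocks with the intron between them. Whether the pairs here are such blocks could be read only in part, because exon borders were not analysed here.

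The bases at the facing edge of the upstream site bear most directly on that question, and they are shown first. RefSeq promoter sequences (GRCm38.p6, from 250 bases before to 50 after each gene start) covered the edge for 4 of the equal-fold pairs, in 4 genes. The sequence was that of the gene itself only for Ndufs7. It was that of Rars2 for Orc3, and that of a predicted gene for Eif3m and for Tekt1. Each line gives the last 12 bases of the site on the strand of the gene, in lower case, then the next 2 bases outside it in capitals, then 4 more. The genes were picked by being readable there and not by their values.
Eif3m (chr2:105016940-105016957, minus strand): gaggaagaccagGTgcac
Ndufs7 (chr10:80249480-80249497, plus strand): cggcgctggcggGTgagt
Orc3 (chr4:34614859-34614876, minus strand): tccgtgtctaagGTacgt
Tekt1 (chr11:72361787-72361804, minus strand): taatgaactaagGTaagt
All 4 edges were followed directly by GT. Eif3m encodes a subunit of translation initiation factor eIF3, Ndufs7 a subunit of mitochondrial complex I, Orc3 a subunit of the origin recognition complex, and Tekt1 a tektin of ciliary and flagellar microtubules. Read along the strand of these windows, GT stood at 4.98% of all base positions.

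Pairs of unequal fold were read in the same way for comparison. Of 9 distinct edges, 6 were followed by GT, and 1 of the 6 was the Eif3m edge, whose folds were unequal in other lists. The 3 edges of unequal fold nearest the threshold, chosen after their values were seen, are shown here.
Pank2 in depleted IP 2, fold ratio 1.06 (chr2:131262804-131262821, plus strand): agaggcggccgcGTaagt
Ptpn21 in control IP 2, fold ratio 1.08 (chr12:98737359-98737376, minus strand): gagccggagcagGTgagg
Ptpn21 in control IP 1, fold ratio 1.08 (chr12:98737380-98737397, minus strand): agcgcggccccgACccgg
In Ptpn21, which encodes a protein tyrosine phosphatase, the edge met GT in 1 replicate and not in the other, where the site ended at a different base. A GT beside an edge was therefore found in pairs of equal and of unequal fold, and 4 edges are too few to compare the shares. The windows hold only the starts of genes, so these edges are not a sample of all pairs, and the letters at an edge are a description and no proof of a donor site.

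Equal-fold pairs occurred in all 8 lists. Control IP 1 held 20 among 163 neighbouring pairs (12.3%) and control IP 2 held 15 among 160 (9.38%). Control IgG 1 held 9 among 115 (7.83%) and control IgG 2 held 5 among 112 (4.46%). After depletion, IP 1 held 44 among 272 (16.2%) and IP 2 held 7 among 55 (12.7%), while IgG 1 held 9 among 124 (7.26%) and IgG 2 held 11 among 133 (8.27%). For scale, among all pairs of sites from different genes in a list 1.76% met the same ratio, namely 1.48% and 1.52% in control IP, 1.47% and 1.34% in depleted IP, 2.40% and 2.24% in control IgG and 2.11% in both depleted IgG lists. All 4 IP lists lay above all 4 IgG lists in their share within genes, whereas the order was the other way for sites of different genes.

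**Figure D1:**
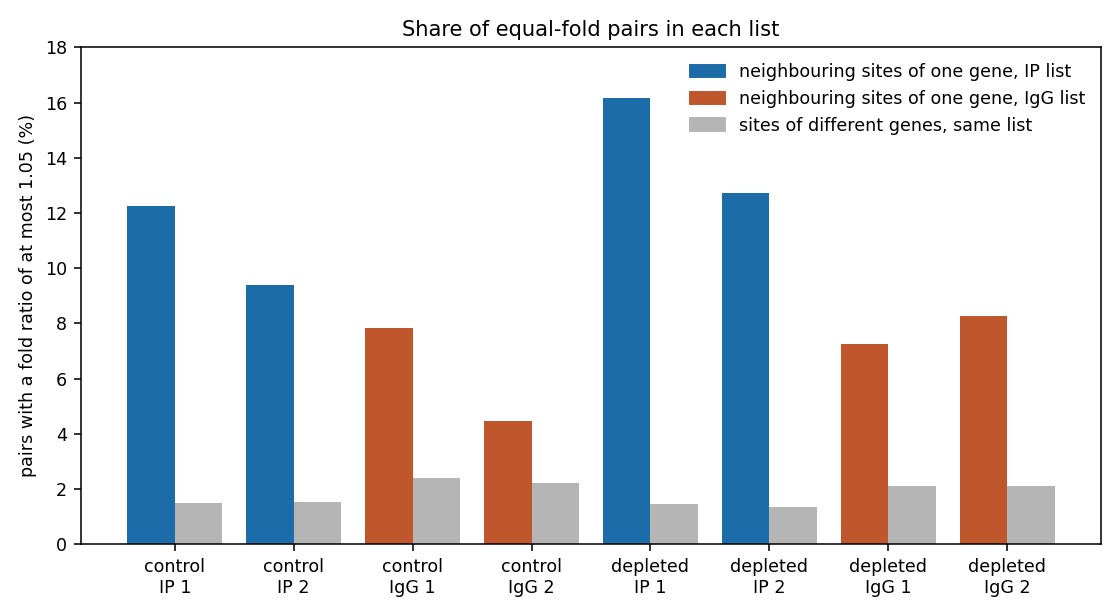
Percentage of neighbouring site pairs of one gene whose folds lie within 5% of each other, for each list (blue IP, orange IgG), beside the same percentage among sites of different genes (grey). Each bar is 1 list, with no error bar; the IP bars run from 9.38% to 16.2% and the IgG bars from 4.46% to 8.27%.

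The first question of the design is whether the antibody against RBM25 changes the share relative to IgG. In control organoids the share was 10.8% ± 2.05 in IP and 6.15% ± 2.38 in IgG (SD, n = 2 lists each), a difference of 4.68 percentage points (two-sided exact permutation p = 0.333). In depleted organoids it was 14.5% ± 2.44 in IP and 7.76% ± 0.716 in IgG, a difference of 6.69 points (exact permutation p = 0.333). With folds required to lie within 1% of each other, the differences were 2.29 points in control organoids (exact permutation p = 0.333) and 1.76 in depleted organoids (exact permutation p = 0.667). The lists did not overlap in either comparison at the 5% limit, but 2 against 2 lists cannot give a p below 0.333. Within the 4 cultures IP exceeded IgG by 4.44, 4.91, 8.92 and 4.46 points, in 4 of 4 cultures, with a mean of 5.68 (exact sign change test, p = 0.125, the smallest it allows, and a test chosen after the shares were seen). IP was higher in 3 of 4 cultures under 3 alternatives: at the 1% limit (mean 2.03 points, exact p = 0.25, depleted culture 2 at −0.246), with a false discovery rate under 100% (4.77 points, exact p = 0.375, control culture 2 at −6.74) and with sites under the score ceiling (6.90 points, exact p = 0.375, control culture 1 at −4.66). With only the sites of a false discovery rate under 100%, the mean difference in control organoids shrank to 0.203 points (exact permutation p = 1).

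The effect of depletion was compared in the same manner. Control minus depleted organoids gave −3.63 percentage points for the IP share (exact permutation p = 0.333) and −1.62 points for the IgG share (exact permutation p = 0.667), where the lists overlapped. The depleted IP libraries stood apart from each other: of the 44 equal-fold pairs of depleted IP 1, 0 had both sites in depleted IP 2, and of the 7 of depleted IP 2, 0 had both in depleted IP 1. The same held for their other neighbouring pairs, 0 of 228 and 0 of 48, so it was not particular to members. The IP difference was −1.905 points without depleted IP 1 and −5.35 points without depleted IP 2. Leaving out depleted IP 1 also took the total from 120 pairs to 76. Rbm25 itself, the targeted gene, had neighbouring sites only in depleted IP 1, with folds of 1237 and 1873, and was no member because their ratio was 1.51. How far the knockdown lowered Rbm25 RNA cannot be read from lists of sites.

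The folds of the members ran from 6.71 in Epyc, which encodes a proteoglycan of cartilage, to 41548 in Ccnb2, which encodes cyclin B2 and was chosen after its value was seen, while all sites of the 8 lists ran from 2.06 to 220297. The pairs clustered at the tight end of the rule. Of the 120 pairs, 87 had folds within 1% of each other and 33 were more than 1% and up to 5% apart, while 51 neighbouring pairs were more than 5% and up to 10% apart. In the IP lists those counts were 57, 29 and 23, and in the IgG lists they were 30, 4 and 28. Just inside the threshold were Col11a2 in control IP 1 with folds of 21.9 and 22.9, Mybpc1 in control IP 1 with 118 and 113, and Poc1b in control IgG 1 with 138 and 132. Just outside were Cdon in depleted IP 1 with 877 and 835, Rpl37a in depleted IgG 2 with 29.7 and 31.2, and Ccnl2 in control IP 2 with 1252 and 1316.

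**Figure D2:**
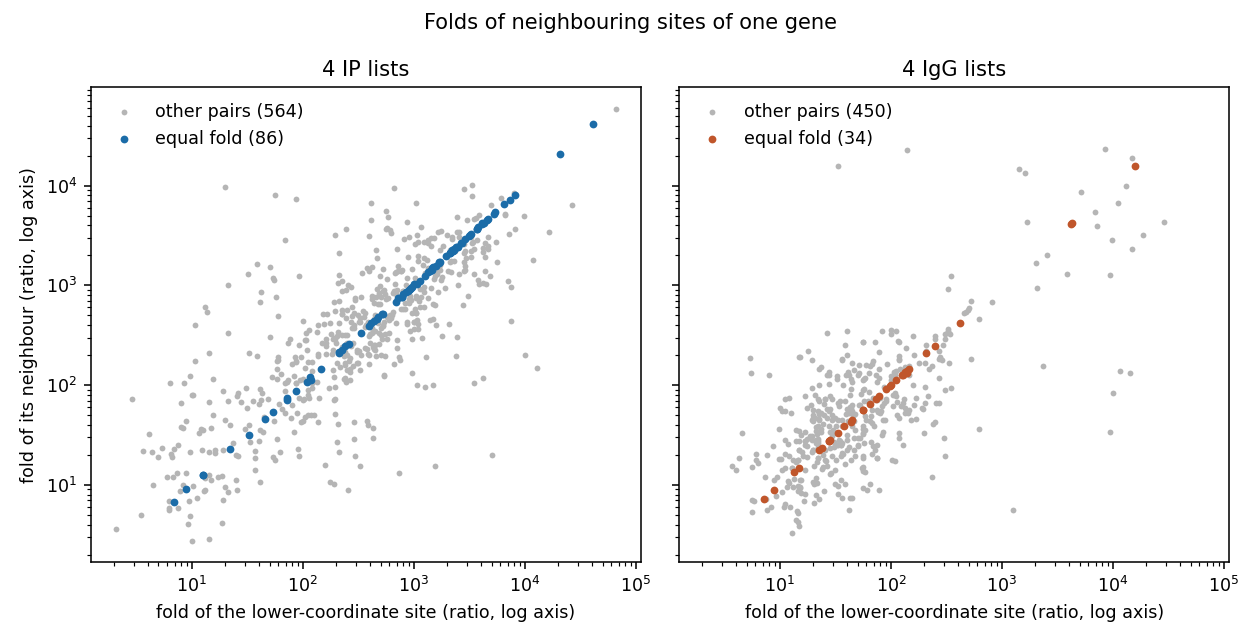
Fold of the site with the lower coordinate against the fold of its neighbour in the same gene, both as the authors' ratio on log axes, for the 4 IP lists (left) and the 4 IgG lists (right). Coloured points are the 86 and 34 equal-fold pairs, which lie on the diagonal because the rule put them there; grey points are the 564 and 450 other neighbouring pairs.

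Exact identity of the 2 folds, to the second decimal, was seen in 49 pairs. In 31 of them the same value was also carried by a site of another gene in that list. This repetition went with the kind of list: in IgG it applied to 4 of 5 and 3 of 4 exactly equal pairs of the control lists and to 6 of 6 and 10 of 10 of the depleted lists. In IP it applied to 0 of 4 and 1 of 3 in the control lists and to 5 of 15 and 2 of 2 in the depleted lists. Between 45.5% and 65.3% of all sites in an IgG list shared their fold with another gene, against 6.24% to 32.3% in an IP list. Members had a median fold of 947 and 2124 in control IP against 127 and 135 in control IgG. After depletion the median was 1300 for IP 1 and 4173 for IP 2, against 91.0 for IgG 1 and 44.6 for IgG 2. All sites of the lists had medians of 241 and 323 in control IP against 35.2 and 33.7 in control IgG. After depletion these were 347 for IP 1, 1386 for IP 2, 55.6 for IgG 1 and 44.6 for IgG 2. Higher folds in IP than in IgG were thus not particular to the members. With pairs left out whose fold another gene held, 72 pairs remained of 120. Both sites had a false discovery rate of 100% in 7 of 9 and 3 of 5 equal-fold pairs of the control IgG lists. In the depleted IgG lists 7 of 9 and 6 of 11 pairs had it. In IP this held for 0 of 20 and 1 of 15 in the control lists and for 1 of 44 and 2 of 7 in the depleted lists. The same share was not counted for other pairs.

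The score, −10 times the log10 of each peak's p, added little for many pairs because it had reached its ceiling. In 97 pairs both sites had the same score, and in 72 pairs both stood at about 3100 or above, where the score no longer orders sites. In the control IP lists 19 of 20 and 14 of 15 members were at this ceiling, against 74.1% and 77.9% of the other neighbouring pairs. In the depleted IP lists 31 of 44 (70.5%) and 5 of 7 (71.4%) were, against 59.2% and 81.2% of the other pairs. In the IgG lists 0 of 9, 1 of 5, 2 of 9 and 0 of 11 members were, against 8.49%, 7.48%, 2.61% and 4.10% of the other pairs.

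In 119 of 120 pairs (99.2%) no other called peak number lay between the sites, the exception being Rplp2, and the share was similar among the other neighbouring pairs (995 of 1014, 98.1%). Both sites were assigned to the same transcript in 113 pairs (94.2%), against 891 of the other pairs (87.9%). The gene had only these 2 sites in the list in 105 pairs (87.5%), against 768 of the other pairs (75.7%). No run of 3 sites of equal fold occurred. Of the 119 pairs whose gene could be looked up in the GRCm38 gene table, 115 had both sites inside the gene, and the gap took a median of 7.51% of the length of the gene.

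Gaps between the sites ran from 139 to 191922 bp, with a median of 1894 bp against 3007 bp in the other neighbouring pairs. Of the 120 gaps, 86 lay between 500 and 5000 bp, 8 were under 500 bp and 17 were over 10000 bp. The median gap was shorter in equal-fold than in other pairs in 7 of 8 lists. It was 1428 against 3277 bp in control IP 1, 1764 against 2647 in control IP 2, 2304 against 3434 in control IgG 1, 2024 against 3007 in control IgG 2, 1653 against 2689 in depleted IP 1, 2987 against 3112 in depleted IgG 1 and 2299 against 3434 in depleted IgG 2. Depleted IP 2, with 7 members, went the other way with 5610 against 2755 bp. The mean difference of log10 medians was −0.12 ± 0.198 (SD, n = 8 lists), a ratio of 0.754, and did not pass the exact sign change test (two-sided p = 0.102, adjusted p = 0.203 over the gap and width tests). Without depleted IP 2 it was −0.18 (exact p = 0.0156), with folds up to 10% apart it was −0.15 (exact p = 0.00781), and with gaps of at most 10 kb it was −0.15 (exact p = 0.0469), so the call depended on these choices. A further 12 alternatives did not pass. Among them were folds within 1% of each other (−0.066, exact p = 0.516) and a false discovery rate under 100% (−0.11, exact p = 0.3125, 5 lists). Lists of replicates share sites, and lists of a culture share cells, so the 8 lists are not fully independent. With the 4 cultures as units the exact sign change p was 0.25, where 0.125 is the smallest allowed. Over all neighbouring pairs the median gap was 2098 bp where the folds were within 1% of each other, 1434 bp where they were more than 1% and up to 5% apart, and then 2429, 2485 and 1948 bp in steps up to 10%, 15% and 20%. It was 2441 bp at fold ratios between 1.2 and 1.5, 2534 bp between 1.5 and 2, 3369 bp between 2 and 5, and 6231 bp above 5. The median thus had no steady course below a ratio of 2.

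**Figure D3:**
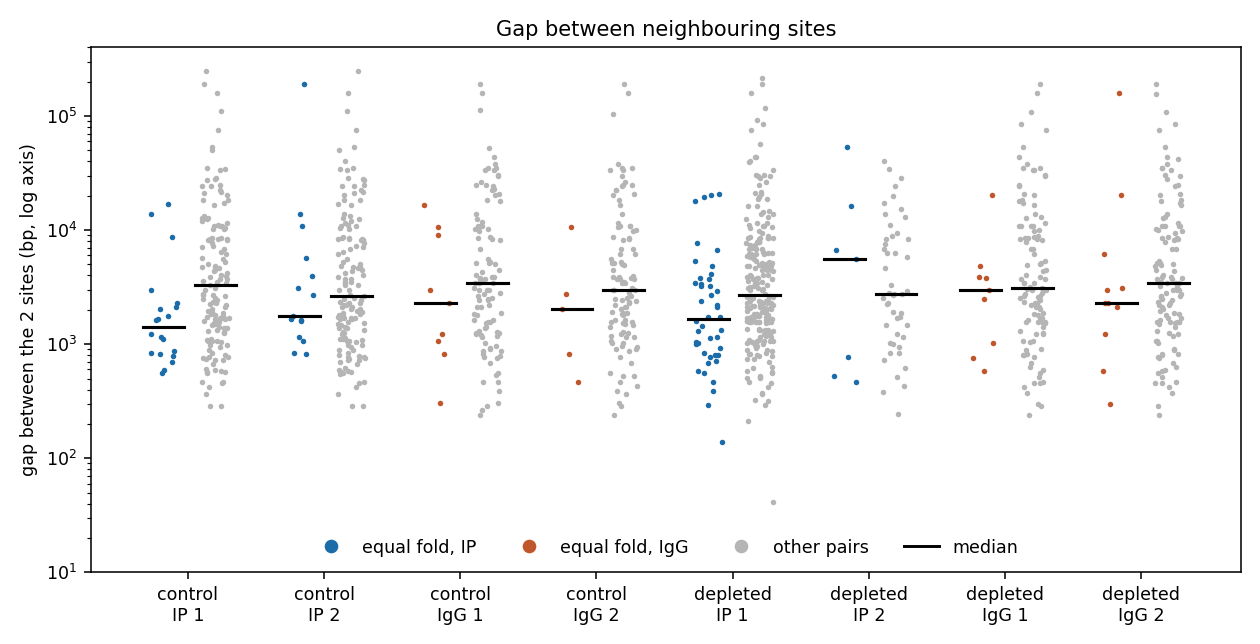
Gap in bp between neighbouring sites of one gene on a log axis, for each list. Coloured points are equal-fold pairs, grey points are other pairs and black lines are medians; the coloured median is the lower one in every list but depleted IP 2.

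Members were narrow. Their median width was 76.5 bp, with a range from 1 to 655 bp, and 24 pairs had a site of 30 bp or less. Median width differed from the other neighbouring pairs by −3.50 bp ± 12.5 (SD, n = 8 lists), lower in 5 of 8 lists (exact sign change test p = 0.43, adjusted p = 0.43). Sites without a neighbour in their gene had median widths between 212 and 227 bp. When the widths of the 2 members of a pair were added, the list medians were between 139.5 and 210 bp, below the lone sites in each of the 8 lists. The sums of the other neighbouring pairs had medians between 162 and 220 bp, below the lone sites in 7 of 8 lists and below the equal-fold pairs in 5 of 8, so the low sum was not particular to equal folds. Of the 120 sums, 90 lay between 80 and 250 bp, and the full range was 30 to 782 bp. The narrowest member was the second site of Ndufs7 in depleted IP 1, 1 bp wide with a fold of 4098, beside a first site of 180 bp with a fold of 4063 and 2941 bp away. Ythdc1, which encodes a nuclear reader of methylated adenosine in RNA and was chosen after its values were seen, had sites of 14 and 16 bp in depleted IP 2.

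**Figure D4:**
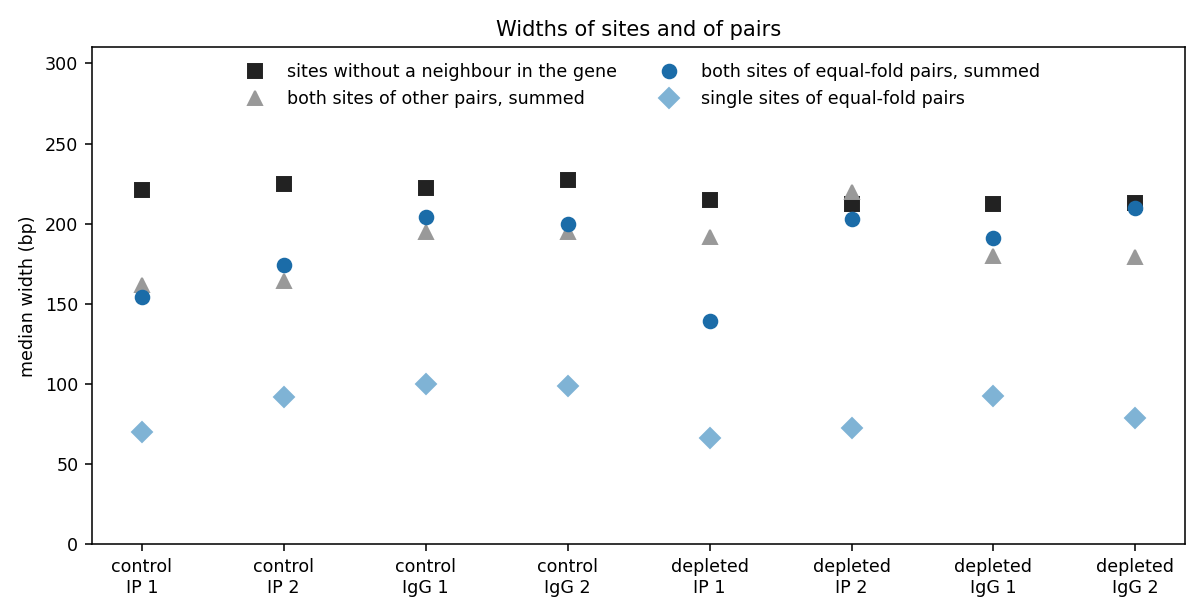
Median widths in bp in each list, for sites without a neighbour in their gene (squares), the summed widths of other neighbouring pairs (triangles), the summed widths of equal-fold pairs (circles) and single members (diamonds). In each list the circle lies below the square, between 139.5 and 210 bp against 212 to 227 bp.

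Whether a pair chosen in 1 library had equal folds again in its replicate is a measure that the choice did not use. All 20 pairs of control IP 1 had both sites in control IP 2, and 6 of them (30.0%) were inside the rule there, against 9 of 135 other pairs (6.67%). In the reverse direction all 15 pairs of control IP 2 were found and 6 (40.0%) were inside, against 14 of 140 (10.0%). For control IgG, 8 of 9 pairs were found and 2 of these (25.0%) were inside, against 2 of 80 (2.50%), and in reverse 4 of 5 were found with 2 inside (50.0%), against 6 of 84 (7.14%). In depleted IgG the members did not stand out, with 1 of 9 found pairs inside (11.1%) against 9 of 109 (8.26%) and, in reverse, 1 of 10 (10.0%) against 8 of 108 (7.41%). For depleted IP 0 pairs of either kind could be followed from one replicate to the other. The equal-fold pairs that stayed inside were the same in both directions, 9 in all, so the directions are not separate counts. In control IgG they were Atp10a and Slc12a5, and in depleted IgG Vta1. The folds of these IgG pairs were also held by other genes of their lists. Most of the equal-fold pairs that were found thus had unequal folds in the replicate list, except from control IgG 2 to control IgG 1, where 2 of 4 were inside. The median ratio in the replicate list was between 1.16 and 1.81 over the 6 directions.

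The lists of one culture behaved differently from the lists of replicate cultures. For the same 2 sites listed in 2 libraries, the ratio of the second fold to the first was compared on the log2 scale. Over all neighbouring pairs the median absolute difference of this ratio was 0.14 between control IP 1 and control IgG 1 (45 pairs), 0.26 between control IP 2 and control IgG 2 (44 pairs) and 0.15 between depleted IP 1 and depleted IgG 1 (73 pairs). Between replicates of the same antibody it was 0.54 in control IP, 0.67 in control IgG and 1.00 in depleted IgG, from 88 to 155 pairs. In the other 17 combinations of lists with at least 10 such pairs it was between 0.53 and 1.14, so the 3 same-culture values lay below all 20 others. Depleted IP 2 and depleted IgG 2 shared just 2 pairs and were left out. For the pairs that were equal-fold in either list the same-culture medians were 0.12, 0.12 and 0.08, against 0.26 to 0.82 elsewhere. These medians rest on 9, 6 and 9 pairs, and on as few as 5 elsewhere. Such pairs were chosen by their ratio in a list that is compared, so these medians are a description only. The library used as the background of the folds is not given in the sources used here, and a background shared by the lists of a culture would enter both ratios, so its part in this closeness was not tested.

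Hgsnat, which encodes a lysosomal acetyltransferase for heparan sulfate, and Isy1, which encodes a spliceosome component, show this in single genes. They are picked examples. Dock8, described below, had ratios of 1.00 in control IP 1 and 1.22 in control IgG 1. The folds of the Hgsnat sites (chr8:25951969-25952055 and chr8:25953281-25953397) were 1381 and 1378 in control IP 1 and 127 at both places in control IgG 1. In culture 2 they were 2796 and 1397 in control IP 2 and 123 and 61.8 in control IgG 2. The folds were thus equal in both lists of culture 1, and in both lists of culture 2 the second was close to 0.50 of the first. After depletion they were 69.5 and 86.8 in IP 1, 218 and 146 in IgG 1, and 216 and 78.05 in IgG 2. For Isy1 (chr6:87819014-87819203 and chr6:87821508-87821540) they were 942 and 937 in control IP 1 and 64.5 at both places in control IgG 1, but 1411 and 2955 in control IP 2 and 63.2 and 133 in control IgG 2. The second site thus stood at 0.99 and 1.00 times the first in culture 1 and at 2.09 and 2.11 times the first in culture 2, although the folds themselves were far higher in IP than in IgG. In the depleted lists the Isy1 ratio was 2.29 in IP 1, 1.95 in IgG 1 and 1.56 in IgG 2. The control IgG 1 pairs of Hgsnat and Isy1 had a false discovery rate of 100% at both places. The Hgsnat fold there was also held by another gene of that list. Gmeb1, which encodes a binding protein of glucocorticoid modulatory elements, was a member in control IP 1 (1447 and 1496) and control IgG 1 (209 and 208) and had ratios of 1.38 and 1.21 in control IP 2 and control IgG 2.

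**Figure D5:**
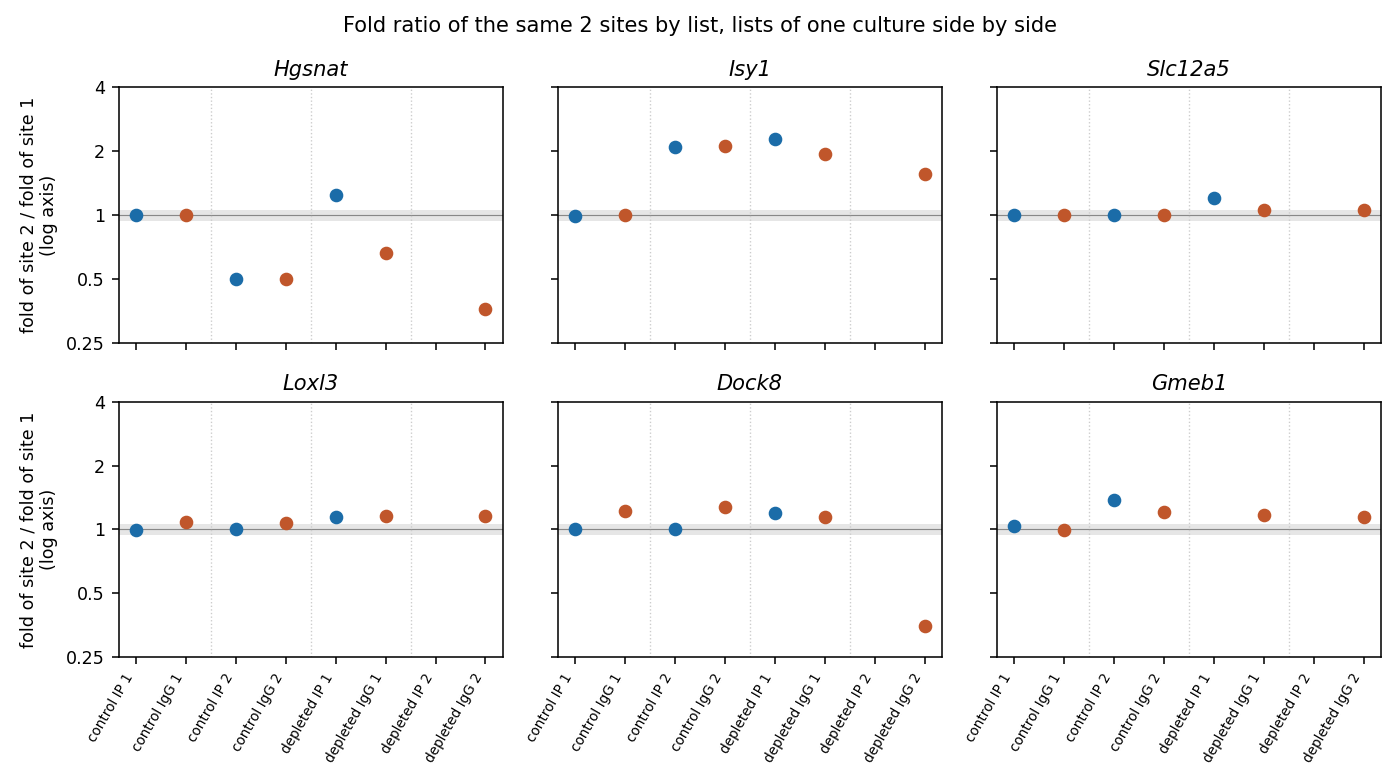
Fold of the second site divided by the fold of the first, on a log axis, for 6 of the 16 genes with equal-fold pairs in at least 2 lists, with the IP (blue) and IgG (orange) lists of a culture side by side. The grey band is 5% either way. Hgsnat and Isy1 lie in the band in both lists of control culture 1 and outside it in both lists of control culture 2.

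Of the 100 places, 16 held an equal-fold pair in at least 2 lists and 84 in a single list. Both sites were listed in 2 or more libraries at 62 of the places. At 4 of these, Vta1, Atp10a, Kif2c and Wdr8, the folds stayed within 5% of each other in every list that had both sites, at 9 the ratio stayed within 1.2, and at 23 it exceeded 2 somewhere.

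Slc12a5, which encodes the neuronal potassium chloride cotransporter KCC2, was equal in the most lists, 4 of 8. Its sites on chromosome 2 (164994008 to 164994111, 104 bp, and 164994930 to 164995025, 96 bp, 818 bp apart) had the same fold at both places in each control list: 1709 in IP 1, 3702 in IP 2, 138 in IgG 1 and 135 in IgG 2. In depleted organoids the same sites had 86.8 and 104 in IP 1, 328 and 346 in IgG 1 and 307 and 325 in IgG 2, ratios of 1.2, 1.06 and 1.06, and depleted IP 2 listed none of this pair. All 4 control lists were inside the rule and the 3 depleted lists outside it, the second site being the higher in each. Both control IgG pairs had a false discovery rate of 100% at both places, and their folds were also held by other genes of those lists. The gene was chosen for this recurrence, so the split is a description.

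Other recurrent genes are described by what their products do, an order for reading that was not tested as a theme. Vta1, which encodes a cofactor of the ESCRT disassembly ATPase, had sites 20341 bp apart on chromosome 10 with folds of 1055 and 1033 in depleted IP 1, 27.8 at both places in depleted IgG 1 and 55.8 at both in depleted IgG 2, and was not listed as a pair in control organoids. Mitd1, whose protein acts with ESCRT in cell division, had 2309.5 at both places in depleted IP 1 and 91.0 at both in depleted IgG 1, but 39.0 and 126 in depleted IgG 2. Depleted IP 2 did not list the Mitd1 pair, so culture 2 is a single list here. The equal-fold IgG pairs of Vta1 and Mitd1 had a false discovery rate of 100% at both places. Their folds were also held by other genes of the same lists. Atp10a, which encodes a phospholipid flippase, was listed as a pair in the control IgG lists alone, with 415 at both places in replicate 1 and 247 at both in replicate 2, 10691 bp apart. Dock8, which encodes an exchange factor for the GTPase Cdc42, had 2234 at both places in control IP 1 and 4561 and 4571 in control IP 2, across 13798 bp. In the control IgG lists Dock8 had 208 and 254, and 247 and 314, so the IgG ratios were 1.22 and 1.27 where the IP ratios were 1.00 in both cultures.

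Several products belong to the cytoskeleton, the centrosome or the cilium. Kif2c, a microtubule-depolymerising kinesin gene, had 2207 and 2198 in control IP 1 and 2124 at both places in control IP 2. Wdr8, now named Wrap73 and coding for a centrosomal protein, had 5388 and 5418 in control IP 1 and 6481 and 6501 in control IP 2. Evc, which encodes a ciliary component of Hedgehog signalling, had 8052 and 8003 in control IP 1, 7267 and 7230.3 in control IP 2 and 40.0 and 64.7 in depleted IP 2. None of these 3 pairs had both sites in an IgG list. Cc2d2a, which encodes a protein of the ciliary transition zone, was equal only in depleted IgG 2 with 144 at both places. In depleted IP 1 it had 2443 and 4886 and in depleted IgG 1 it had 33.3 and 66.7, a ratio of 2.00 in both lists of that culture. Poc1b, a centriole protein gene, was equal only in control IgG 1 and had ratios from 1.18 to 1.52 in 6 other lists.

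Products in RNA processing and gene regulation come next. Zranb2, which encodes a zinc finger protein that binds splice sites, had sites of 27 and 25 bp with folds of 785 and 773 in control IP 2 and 100.35 at both places in depleted IgG 2. Its control IP 1 folds were 391 and 202, its control IgG folds 31.7 and 17.9 in replicate 1 and 30.3 and 33.1 in replicate 2, and its depleted IgG 1 folds 100.02 and 328. Ccnl2, a cyclin L gene tied to pre-mRNA splicing, was inside the rule in control IP 1 (1126 and 1110) and at 1.0506 just outside it in control IP 2. Anp32e, which encodes a histone chaperone for H2A.Z, had 4621 at both places in depleted IP 1, with ratios of 1.06 to 1.80 in the 4 IgG lists. Ctbp1, a transcriptional corepressor gene, had 477 at both places in depleted IP 1, with both sites exactly 200 bp wide and 390 bp apart. Elf3, an epithelial transcription factor gene, had 2503 and 2420.1 in control IP 2 and 2834 and 2102.5 in control IP 1.

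In the genes of 2 ubiquitin ligases and a zinc finger protein the folds and their ratio both moved widely between lists. Trip12, a ubiquitin ligase gene, had 45.4 at both places in depleted IP 1, while depleted IgG 1 gave 15655 and 15758 and depleted IgG 2 gave 1665 and 4355. The IgG fold was thus far above the IP fold of the same culture. Zswim4, a zinc finger gene, went the other way, with 3683 and 3670.0 in depleted IP 1 and 97.2 at both places in depleted IgG 1, and with ratios of 1.31, 2.50 and 2.00 in control IgG 1, control IgG 2 and depleted IgG 2. The Trip12 pair of depleted IP 1 and the Zswim4 pair of depleted IgG 1 had a false discovery rate of 100% at both places. The folds of both these pairs were also held by other genes of their lists. Nedd4l, which encodes a ubiquitin ligase of sodium channel turnover, had the longest gap, 191922 bp, with folds of 893 and 902 in control IP 2. In the other 6 lists that held both sites its ratio was between 1.07 and 4.67, the lowest being in control IgG 2, the other list of that culture.

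Products of the extracellular matrix and of muscle had pairs at low and high folds. Loxl3, which encodes a lysyl oxidase that crosslinks collagen, had 1571 and 1568 in control IP 1 and 3282 and 3299 in control IP 2, and ratios of 1.08 to 1.16 in the 5 other lists with both sites. Col11a2, a fibrillar collagen chain of cartilage and the tectorial membrane, had 21.9 and 22.9 in control IP 1, 61.4 and 65.0 in control IP 2, 8.92 and 11.1 in depleted IgG 1 and 7.55 and 7.15 in depleted IgG 2. Its ratio in control IP 2 was 1.06, just past the rule. Col9a1, a chain of collagen IX, had 72.0 and 74.8 in control IP 2 and 32.5 and 40.2 in control IP 1. Sparc, which encodes a collagen-binding matrix protein, had 8.83 and 9.01 in depleted IP 1, and Epyc had 6.90 and 6.71 in the same list across 20633 bp. Mybpc1, a myosin-binding protein gene, had 118 and 113 in control IP 1 and 173 and 93.75 in control IP 2.

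By gene list, the share of genes with an equal-fold pair was counted among genes that had 2 or more sites in a list, 379 genes in all, of which 100 (26.4%) held one. The lists are fixed sets of named genes and do not take in every gene of a kind: Isy1, Zranb2, Ythdc1, Wdr8, Cc2d2a, Poc1b, Tekt1, Kif2c, Loxl3, Epyc and Eif3m, described elsewhere in the text, are in none of them. Of listed splicing factor and RNA-binding protein genes 1 of 11 did, Ccnl2. Of listed collagen and matrix genes 3 of 13 did, Col11a2, Col9a1 and Sparc. Of listed ribosomal protein and translation genes 3 of 14 did: Fau, which encodes a ubiquitin-like protein fused to a ribosomal protein, with 7.16 and 7.22 in depleted IgG 1, Rpl32 with 32.7 and 31.3 in control IP 1, and Rplp2 with 238 and 246 in depleted IP 1. Such genes have near-identical copies, so the place of their sites is uncertain. Of listed cilium and centrosome genes 1 of 4 did, Evc, and of cytoskeleton and junction genes 2 of 8, the desmosomal gene Dsp with 13.3 and 13.5 in control IgG 1 and Elf3. The 5 lists lay between 9.09% and 25.0%, none of them above the 26.4% of all genes, and nothing is read from shares of so few genes.

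Markers of the labelled tissue were thin in the lists as a whole. A site in any of the 8 lists was found for 1 of 10 hair cell markers (Barhl1), 2 of 9 supporting cell markers (Sox10 and Otog) and 4 of 6 mesenchyme markers, and for 0 of 6 glia and neuron and 0 of 5 immune and endothelial markers. Among all these markers Sparc alone held an equal-fold pair. Defining markers such as Atoh1, Pou4f3, Myo7a and Sox2 were not listed, but a list of sites does not measure the level of an RNA.

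In 2 genes the place of the sites went against the gene name. The Vat1 pair lay 1515 and 1013 bp outside Vat1 on chromosome 11, inside the interval of Ifi35, an interferon-induced gene, with sites of 200 to 209 bp that were 295 to 302 bp apart. Control IgG 1 gave it folds of 23.9 and 23.6, depleted IP 1 folds of 2429.7 and 2417, and depleted IgG 2 folds of 43.6 and 42.9, with ratios of 1.08 and 1.09 in control IgG 2 and depleted IgG 1. The Zfp781 pair, of a zinc finger gene, spanned 158820 bp on chromosome 10, and its first site lay 158323 bp outside the gene in the interval of a predicted gene. In all 7 lists that held the pair the 2 sites had the same width, 270 or 277 bp. Its folds were equal in depleted IgG 2, 78.05 at both places, and the second fold was 1.82 and 1.85 times the first in control IP 1 and IgG 1 and 1.45 and 1.44 times in control IP 2 and IgG 2. In depleted culture 1 the lists differed, with 1.81 in IP 1 and 0.75 in IgG 1. D5Ertd579e, with a gap of 53176 bp, had 12.5 at both places in depleted IP 2 with a false discovery rate of 100%, and 2520.2 and 3424, and 3335 and 2647.5, in the control IP lists.

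The overlap of members with the IgG list of their own culture differed between cultures. Of the 20 pairs of control IP 1, 7 had both sites in control IgG 1, 3 had 1 site and 10 (50.0%) had none, against 60.8% with none among its other pairs. Of the 15 of control IP 2, 6 had both and 9 (60%) none, against 63.4%. Of the 44 pairs of depleted IP 1, 9 had both sites in depleted IgG 1, 4 had 1 and 31 (70.5%) had none, against 48.2% without either site among its other pairs. All 7 pairs of depleted IP 2 were absent from depleted IgG 2, as were 45 of its 48 other pairs (93.75%). In the lists labelled Input, each site of which was also a site of the IP list of that culture, both sites were kept for 10, 9, 31 and 7 of these pairs and just 1 site for 3, 0, 4 and 0. These counts are the same as the counts of pairs with neither site and with 1 site in the IgG list of the culture. The lists labelled Input are therefore no separate measurement of the pairs.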

How the data were processed

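RNA immunoprecipitation libraries of 12 samples were described by 1 list of sites each. Reads were handled with HISAT2 2.0.4 and cutadapt 1.9.3 and the build was mm8, per the submitters' processing notes. No source used here names the peak caller or its background library. Both sites of 115 of 119 equal-fold pairs fell inside the GRCm38 interval of their gene, although mm8 is a different build. The gene intervals and edge bases given here rest on reading the coordinates as GRCm38. Coordinates are printed counting from 1. Per the file headers, the lists give the authors' fold enrichment, a ratio over the caller's background, a score of −10 times log10 of p, and a false discovery rate in percent. Site widths in bp and coordinates were taken as the authors deposited them. Depth is unknown because the deposited lists hold no read counts.

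Pairs were built from the IP and IgG lists with Python 3.11.15, pandas 2.3.3, NumPy 2.4.6 and SciPy 1.17.1, and the pairing was tested on simulated lists, in which planted pairs were recovered. The pairs not planted lay far outside the rule there, so cases at the threshold were not tried. Shares were compared between groups by two-sided exact permutation over 2 against 2 lists, and gaps and widths by an exact sign change test over 8 lists. Sites of 2 lists matched when they overlapped by 1 bp. The pairs, gene lists, markers and tests were chosen with earlier results of these data known. Genes were named by the number of lists with a pair (the first 20), the longest and shortest gaps (5 each), nearness to the threshold (3 each side), membership of a gene list, or a readable edge, and others are marked as chosen after their values were seen. Promoter sequences and gene intervals are RefSeq's for GRCm38.p6. Exon borders and acceptor sites were not analysed here.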

Additional observations from a re-analysis of the deposited data

How the results depend on the processing

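Under fold limits of 1% and 10%, 2 gap limits, every pair of sites of a gene, a false discovery rate under 100%, and each replicate left out, the mean difference between IP and IgG shares stayed above 0 in control and in depleted organoids, and the control minus depleted IP difference stayed below 0. Single cultures did not all keep the direction, as given with the main result, and sites under the score ceiling were tried for the 4 cultures alone. No test of shares could pass 0.05. The difference of the IgG shares between control and depleted organoids turned to 6.69 points with a false discovery rate under 100% and to 0.0617 without control IgG 2 (range −3.30 to 0.0617 with each replicate left out). Leaving out each replicate gave 3.00 to 6.36 points for control IP over IgG, 4.96 to 8.41 for depleted IP over IgG and −5.35 to −1.90 for control over depleted IP. The shorter gap passed its test at a limit of 10% (−0.15), with gaps of at most 10 kb (−0.15) and without depleted IP 2 (−0.18), and ranged from −0.18 to −0.088 with each replicate left out. It did not pass under 12 other alternatives, among them a limit of 1% (−0.066) and the 4 cultures as units (−0.12). The width difference ranged from −6.29 to −0.857 bp. The number of pairs was 72 without folds held by another gene and 76 without depleted IP 1, both chosen after seeing the data. The pairs found in both replicate lists, 9, became 16 at a limit of 10%, by construction a wider rule. With the replicate number as a block the 4 differences of shares kept their values of 4.68, 6.69, −3.63 and −1.62 points, with exact p of 0.5, 0.5, 0.5 and 1, of which 0.5 is the smallest that 2 pairs allow. The causes of the other changes were not tested. Depth is unknown, so the precision of single folds could not be given.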
